A study of Mus musculus with 227 samples.

Results

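Mutations of chromatin and transcription regulators, many of which remove 1 copy, are a frequent cause of intellectual disability, autism and epilepsy. From these regulators 31 genes were followed here across a drug screen in cultured mouse cortex. The members were chosen by name, as the rows of the deposited count table whose symbol matched the list, and all 31 were found among its 31689 genes. The list holds 8 chromatin remodellers, 7 genes of histone methylation, 3 of histone acetylation, 7 sequence-specific transcription factors and 6 cofactors, cohesin loaders and kinases. RNA was sequenced from primary cerebrocortical cultures of FVB/N by C3B6F1 hybrid mouse embryos, prepared at embryonic day 16.5 and grown for 21 days. Each of 218 brain-penetrant drugs was given to 1 culture for 8 h, and 9 cultures received vehicle, 0.2% DMSO. Drug doses are not given in the sources used here. The question asked of the list was whether any drug raised these genes, for many of which loss of 1 copy causes disease.

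Chromatin remodellers use ATP to slide or evict nucleosomes, methyltransferases and acetyltransferases mark the histone tails, and sequence-specific factors bring these enzymes to their targets. Neurons need the normal dose of many of these proteins, because losing 1 allele is enough to disturb cortical development even when the other allele is intact. Several members act together: Arid1a, Arid1b, Smarca2, Smarca4 and Smarcb1 encode subunits of the BAF remodelling complex, and Crebbp and Ep300 encode a pair of closely related acetyltransferases.

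Promoter windows from RefSeq (GRCm38.p6) were found for 24 of the 31 members. Over 250 bases before the start, the 33 member windows held a median of 18 CpG dinucleotides, against 6 over all 32851 windows, and 16 of the 33 held at least 20 (48.5%, against 17.9% of all windows). The sequences below belong to 3 genes whose rises are described further on, Hdac4 with formoterol, Med13l with fenofibrate and aminophylline, and Dyrk1a with the thyroid hormones. For Hdac4 the window lies at chr1:92180342-92180591 on the minus strand, inside the annotated span of the gene, and the capitals mark TGACG, the half-site that cAMP-responsive factors recognise. For Med13l (chr5:118560469-118560678, plus strand) and Dyrk1a (chr16:94570657-94570863, plus strand, inside the annotated span) the capitals mark CpG, and only bases before the annotated exon are printed.
Hdac4: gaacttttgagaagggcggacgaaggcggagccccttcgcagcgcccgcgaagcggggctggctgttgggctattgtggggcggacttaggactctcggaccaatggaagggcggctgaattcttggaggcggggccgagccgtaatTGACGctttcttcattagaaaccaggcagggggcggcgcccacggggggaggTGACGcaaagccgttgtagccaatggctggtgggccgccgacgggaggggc
Med13l: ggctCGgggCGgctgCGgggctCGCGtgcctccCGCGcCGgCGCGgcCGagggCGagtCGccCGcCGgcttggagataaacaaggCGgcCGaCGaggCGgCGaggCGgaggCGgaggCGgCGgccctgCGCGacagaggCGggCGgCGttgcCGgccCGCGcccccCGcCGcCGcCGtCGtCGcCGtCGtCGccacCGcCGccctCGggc
Dyrk1a: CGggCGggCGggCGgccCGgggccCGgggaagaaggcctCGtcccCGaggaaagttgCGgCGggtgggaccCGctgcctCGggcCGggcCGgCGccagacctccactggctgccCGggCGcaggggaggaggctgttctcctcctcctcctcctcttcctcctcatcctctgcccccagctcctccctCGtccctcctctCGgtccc
TGACG, searched on both strands, occurred 2 times in the Hdac4 window, and 7 of the 33 member windows held it (21.2%, against 17.8% of all windows). The full palindrome TGACGTCA, which contains TGACG, was in 1.55% of all windows and in no member window. The nuclear receptor half-site AGGTCA was in 5 member windows (15.2%, against 14% of all windows), none of them a window of Dyrk1a. These are matches of letters in short windows and show no binding.

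Library totals ran from 22019878 to 65189712 counts (vehicles 31401522 to 43766202). The labels give 9 run codes, of which 3 hold no vehicle. Markers of neurons, astrocytes and the oligodendrocyte lineage were present, whereas 6 of 8 microglial and 5 of 6 endothelial markers lay under 1 CPM (counts scaled to 1000000 per library) in vehicle. In bulk RNA, fewer cells of a type and less RNA per cell cannot be told apart. Nothing in the labels ties the vehicle libraries to separate litters or cultures prepared apart, so the p-values measure the spread between these samples only.

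Levels between genes were compared per length, in RPKM (reads scaled to gene length and to mapped reads of the library). Mef2c, an activity-dependent factor of excitatory neurons, stood highest in vehicle at 78.2 ± 26.7 (SD, n = 9), and its libraries ran from 43.0 to 123. Next came Tcf4, a helix-loop-helix factor lost in Pitt-Hopkins syndrome (46.3 ± 3.72), the BAF core subunit Smarcb1 (41.5 ± 3.52), and the BAF ATPases Smarca2 (41.2 ± 3.83) and Smarca4 (39.7 ± 2.06). The lowest were Mbd5, a methyl-CpG-binding domain protein (6.22 ± 0.349), Chd7, the remodeller lost in CHARGE syndrome (4.28 ± 0.586), and Adnp, a homeodomain zinc-finger protein (1.656 ± 0.176). Of the 30 neighbouring pairs in this order, 26 had overlapping vehicle ranges, and the 4 gaps lay between Smarca4 and Setd5, Ehmt1 and Kmt2d, Mbd5 and Chd7, and Chd7 and Adnp. The order of the 5 highest is therefore not firm. Adnp overlaps another annotated protein-coding gene, Gm20716, on the same strand; Gm20716 had 0 reads in every library, and the level of Adnp (mean 288 reads per library) is uncertain. Ash1l, Mbd5 and Ankrd11 overlap protein-coding genes on the opposite strand.

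**Figure D1:**
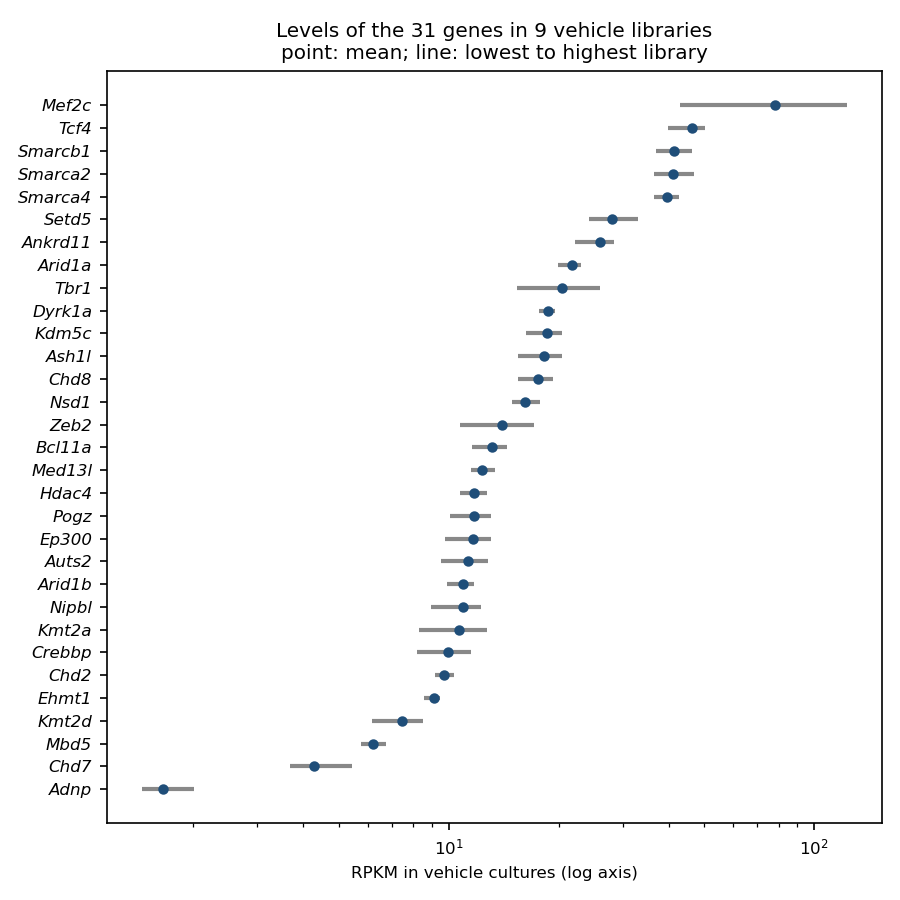
Levels of the 31 genes in the 9 vehicle libraries, in RPKM on a log axis, with the mean as a point and the lowest to highest library as a line. Mef2c has the highest mean and a wide range (43.0 to 123), and Adnp the lowest mean (1.656).

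The members are long genes, with a median genomic span of 125.5 kb against 25.48 kb over 14492 protein-coding genes, and 29 of the 31 exceed that median. Their RNA varied less across the screen than that of the median gene kept. The median SD of log2 CPM over drugs, after centring each run code on its median, was 0.0985 for the members and 0.159 over the 15332 genes kept, and over the 9 vehicles it was 0.105 against 0.179. The genes kept include many with far fewer reads, whose log2 values vary more by counting alone. No set matched for level was compared, so the members are not shown to be steadier than genes of like level. Run code had a median R squared of 0.252 with a member's log2 CPM, against 0.236 over all genes. Mef2c varied most, with a run-centred SD of 0.38.

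Each drug library was set against the 9 vehicles with edgeR's quasi-likelihood test, with p adjusted by the Benjamini-Hochberg method over all genes of that drug, and a gene is said to have risen or fallen where the adjusted p was under 0.05. A drug has 1 library and therefore no error of its own, and it is assumed to vary as the vehicles do. Of 6758 member-by-drug tests, 20 passed (0.296%, against 0.12% of all gene-by-drug tests), 18 as rises and 2 as falls. They came from 8 drugs and 11 members. All 20 also passed in DESeq2, which made 58 member calls (0.858% of its member tests, against 0.262% of all its tests), and in a limma fit over all libraries with run code as a term, which made 52 (0.769%, against 0.479%). Those fits held more falls, 37 rises and 21 falls in DESeq2 and 36 and 16 with run code. DESeq2 was run on every gene with a read, 4756016 tests against 3359570 in edgeR. Its shares of all genes, here and below, include genes with few reads, so the contrast with the members is not on a like base. The 20 calls of edgeR each lay outside the range of all 9 vehicles, which a call of 1 library against their spread nearly implies. When each vehicle was set against the other 8, or with run code against all other libraries, none of these 3 tools called a member. Of all gene tests in those fits, edgeR called 0%, DESeq2 0.019% and the run-code fit 0.0239%. At such shares the lack of calls among 279 member tests is not particular to the members. Of the 18 rises, 17 were the highest value in their own run code, and the exception, Chd2 with diflunisal, stood just under ciprofibrate in the same run. Ciprofibrate, diflunisal, luteolin and mitoxantrone were sequenced in run codes with no vehicle, so against vehicle the drug and the run code cannot be told apart; for them the fit with the run-code term, which compares a drug with the other drugs of its run, is given beside the fold change.

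**Figure D2:**
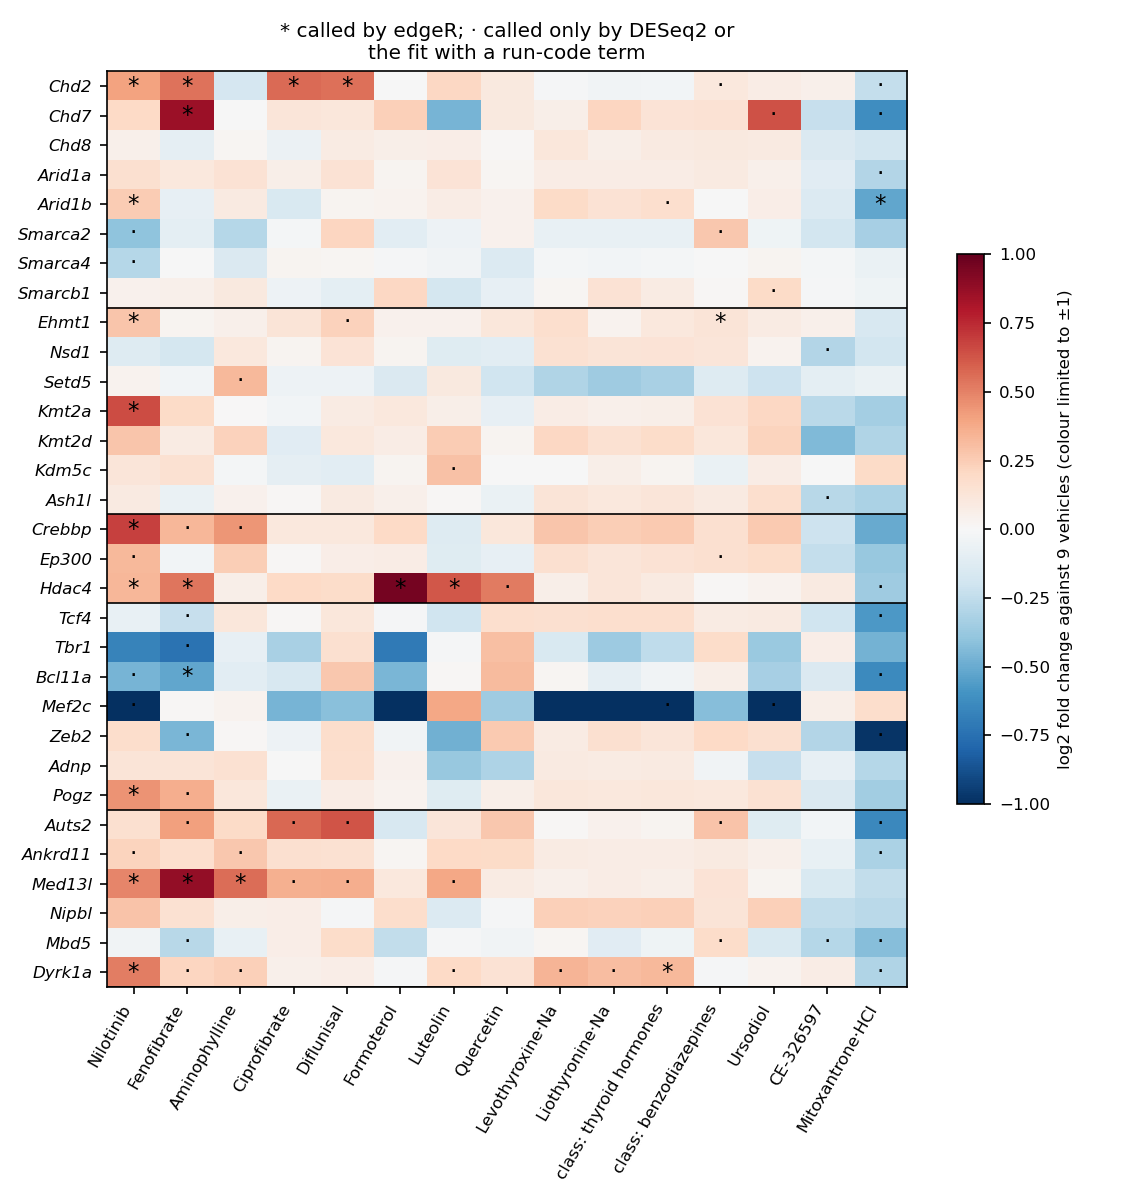
Log2 fold changes of the 31 genes (rows, grouped by role) against the 9 vehicles for 15 drugs and classes (columns), with colour limited to ±1. Asterisks mark edgeR calls and dots mark calls made only by DESeq2 or by the fit with run code; rises gather in the column of nilotinib, and the column of mitoxantrone is mostly blue.

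Among the remodellers, Chd2, a chromodomain helicase whose loss causes childhood epilepsy, rose with 4 drugs. Its vehicles lay between 84.1 and 92.4 CPM (median 88.3). Ciprofibrate, a fibrate, and diflunisal, a salicylate, each had Chd2 as their only member called, beside 0.723% and 0.13% of all genes. Ciprofibrate stood at 130.0 CPM, fenofibrate at 129 CPM, diflunisal at 129 CPM and nilotinib at 117 CPM, all above every vehicle. The log2 fold changes were 0.56 ± 0.0652 (SE) for ciprofibrate (edgeR adjusted p = 0.00611), 0.54 ± 0.0656 for fenofibrate (adjusted p = 0.000788), 0.55 ± 0.0653 for diflunisal (adjusted p = 0.0117) and 0.40 ± 0.0672 for nilotinib (adjusted p = 0.0054). With the run-code term the values were 0.51, 0.58, 0.50 and 0.41 in the same order. Without vehicle replicate 5 the diflunisal rise no longer passed (adjusted p = 0.0549). Chd2 was lowest with rifampin (69.5 CPM, log2 fold change -0.35, edgeR adjusted p = 0.819, DESeq2 adjusted p = 0.00421), followed by mitoxantrone (74.6 CPM) and CP-945598 (75.8 CPM).

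Chd7, which keeps enhancers of neural progenitors open, rose with 1 drug, fenofibrate. Its vehicles ran from 40.4 to 55.1 CPM (median 42.0), and fenofibrate stood at 80.1 CPM (log2 fold change 0.85 ± 0.143, edgeR adjusted p = 0.00482; 0.91 with run code). The next highest were ursodiol at 69.3 CPM (0.64, adjusted p = 0.304) and leucovorin at 67.6 CPM (0.60, adjusted p = 0.225), and ursodiol passed in the fit with run code (0.64, adjusted p = 0.0322; 19.2% of all genes called). Its lowest drugs were mitoxantrone (28.5 CPM), luteolin (32.3 CPM) and PF-04191834-00 (33.8 CPM), none of which passed in edgeR.

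Arid1b, the DNA-binding BAF subunit lost in Coffin-Siris syndrome, moved both ways. Its vehicles were tight, from 120 to 133 CPM (median 125). Nilotinib stood above them at 151 CPM (log2 fold change 0.26 ± 0.0707, edgeR adjusted p = 0.041) and mitoxantrone below them at 86.9 CPM (-0.52 ± 0.076, adjusted p = 0.02; -0.44 with run code, adjusted p = 2.61e-06). The nilotinib rise lost its call without vehicle replicate 1, 5, 8 or 9 (adjusted p 0.0507 to 0.0687) and without the filter on low counts (0.0686). After nilotinib, levothyroxine (144 CPM) and trihexyphenidyl (143 CPM) were highest, and after mitoxantrone, vigabatrin (109 CPM) and clofibrate (111 CPM) were lowest. Chd8, Arid1a, Smarca2, Smarca4 and Smarcb1 were called in no drug by edgeR. Arid1a, the sister subunit of Arid1b, reached 226 CPM with carvedilol against vehicles of 180 to 200 CPM (log2 fold change 0.28, edgeR adjusted p = 0.578, DESeq2 adjusted p = 0.0125). The ATPase genes Smarca2 and Smarca4 had their lowest levels with nilotinib, Smarca2 at 204 CPM against vehicles of 244 to 310 CPM (log2 fold change -0.40, edgeR adjusted p = 0.0708) and Smarca4 at 208 CPM against 235 to 273 CPM (-0.29, adjusted p = 0.0627); both passed in DESeq2 and in the fit with run code.

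Of the histone methylation genes, Kmt2a and Ehmt1 rose, both with nilotinib. Kmt2a, a methyltransferase of active promoters that is mutated in Wiedemann-Steiner syndrome, ran from 142 to 206 CPM in vehicle (median 182) and stood at 278 CPM with nilotinib (log2 fold change 0.65 ± 0.169, edgeR adjusted p = 0.0336). Its call was lost without vehicle replicate 5 (adjusted p = 0.0599) or 9 (0.0565). Carvedilol (228 CPM) and biperiden (224 CPM) came next, and sulfamethoxazole (122 CPM), CP-610927-01 (122 CPM) and rufinamide (124 CPM) were lowest, without passing. Ehmt1, a methyltransferase of silent chromatin lost in Kleefstra syndrome, was among the steadiest members, with vehicles between 52.4 and 56.3 CPM (median 54.4). Nilotinib stood at 66.1 CPM (log2 fold change 0.27 ± 0.0642, edgeR adjusted p = 0.0238), above diflunisal (63.5 CPM) and lorazepam (61.7 CPM). Mitoxantrone (48.4 CPM), dexamethasone (48.9 CPM) and mebendazole (49.0 CPM) were lowest for Ehmt1. Nsd1, Setd5, Kmt2d, Kdm5c and Ash1l were called in no drug by edgeR, and their log2 fold changes over the 218 drugs stayed between -0.51 and 0.38, both limits set by Kmt2d. With the run-code term Nsd1 and Ash1l passed as lower with CE-326597, Nsd1 at 167 CPM against vehicles of 194 to 228 CPM (-0.33, adjusted p = 0.00327) and Ash1l at 174 CPM against 188 to 240 CPM (-0.29, adjusted p = 0.044), where 2% of all genes were called lower. In the same fit Setd5 passed as higher with aminophylline, at 239 CPM against vehicles of 159 to 226 CPM (0.39, adjusted p = 0.00656; edgeR adjusted p = 0.664), and Kdm5c as higher with luteolin, at 153 CPM against 107 to 136 CPM (0.24, adjusted p = 0.046; edgeR adjusted p = 0.305). The fit called 3.61% of all genes with aminophylline and 9.07% with luteolin.

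In the acetylation group the largest rise of any member was that of Hdac4, a class II histone deacetylase that shuttles between cytoplasm and nucleus and represses Mef2 factors. Its vehicles held 87.7 to 103 CPM (median 96.6), and formoterol, a beta-adrenergic agonist that raises cAMP, stood at 186 CPM. The log2 fold change was 0.96 ± 0.0809 (edgeR adjusted p = 0.000956), and 0.92 with run code, where the other 31 libraries of the run lay between 91.7 and 104 CPM. Formoterol called no other member, and 0.259% of all genes. Luteolin, a flavonoid, gave 147 CPM (0.62 ± 0.0836, adjusted p = 0.0175; 0.62 with run code; 0.247% of all genes called), fenofibrate 138 CPM (0.53 ± 0.0841, adjusted p = 0.00365) and nilotinib 121 CPM (0.33 ± 0.0863, adjusted p = 0.0338). Nilotinib's call on Hdac4 was lost without vehicle replicate 5 (adjusted p = 0.0572). Quercetin stood at 136 CPM (0.52, edgeR adjusted p = 0.0936) and passed in DESeq2 and with run code. The lowest levels of Hdac4 were those of mitoxantrone (74.2 CPM), vigabatrin (78.7 CPM) and guanfacine (84.4 CPM), and none passed in edgeR. The TGACG matches printed above lie before a RefSeq transcript start inside the annotated span of Hdac4, and whether they bear on the rise was not tested.

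The screen held 6 flavonoids. For Hdac4, luteolin and quercetin, which carry a catechol on ring B, stood at 147 and 136 CPM. Apigenin, kaempferol, genistein and daidzein, which carry a lone hydroxyl there, stood at 116, 94.5, 92.6 and 92.8 CPM. Apigenin lay above all vehicles (log2 fold change 0.28, edgeR adjusted p = 0.749), and the other 3 lay inside the vehicle range. Each compound had 1 library and doses are not given, so these values stand side by side without a test between compounds. As a class the 6 flavonoids against vehicle called no gene in edgeR (1166 genes at an unadjusted p under 0.05), and with run code Hdac4 passed (log2 fold change 0.21, adjusted p = 0.00933; 2.37% of all genes called).

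Crebbp, the acetyltransferase lost in Rubinstein-Taybi syndrome, rose with nilotinib. Its vehicles ran from 87.1 to 116 CPM (median 104) and nilotinib stood at 165 CPM (log2 fold change 0.69 ± 0.135, edgeR adjusted p = 0.0119; 0.58 with run code). Aminophylline (139 CPM) and hydroxyurea (131 CPM) came next, and aminophylline passed with run code (0.43, adjusted p = 0.0402; 3.61% of all genes called). Mitoxantrone (71.5 CPM), sulfamethoxazole (73.0 CPM) and medroxyprogesterone (77.1 CPM) were lowest for Crebbp without passing in edgeR. Its partner Ep300 stood at 128 CPM with nilotinib against vehicles of 90.1 to 113 CPM (log2 fold change 0.33, edgeR adjusted p = 0.0805), and passed in DESeq2 and with run code.

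Of the transcription factors, Pogz rose and Bcl11a fell. Pogz, a zinc-finger protein of heterochromatin and a frequent autism gene, ran from 66.6 to 82.5 CPM in vehicle (median 76.3) and stood at 103 CPM with nilotinib (log2 fold change 0.45 ± 0.106, edgeR adjusted p = 0.0243). Fenofibrate (96.3 CPM, adjusted p = 0.0559) and trihexyphenidyl (86.2 CPM) followed, and mitoxantrone (58.4 CPM), medroxyprogesterone (59.97 CPM) and sulfamethoxazole (64.5 CPM) were lowest. Bcl11a, a repressor of cortical projection neurons, ran from 86.9 to 111 CPM in vehicle (median 100.3) and stood at 69.9 CPM with fenofibrate, below every vehicle (log2 fold change -0.52 ± 0.144, edgeR adjusted p = 0.0446). That call was lost in 7 of the 9 fits that left out 1 vehicle, replicates 2 and 4 to 9 (adjusted p 0.0524 to 0.0658), and without the filter on low counts (0.0569); it held with run code (-0.63, adjusted p = 0.00141). Mitoxantrone was lower still for Bcl11a (63.9 CPM, adjusted p = 0.13), followed after fenofibrate by doxepin (72.3 CPM), and tetrabenazine (128 CPM), pregabalin (127 CPM) and quercetin (124 CPM) were highest.

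The other transcription factors passed in no drug by edgeR. Mef2c was the most variable member, with vehicles from 301 to 948 CPM, and its lowest drug, nilotinib, stood at 186 CPM (log2 fold change -1.63 ± 0.564, edgeR adjusted p = 0.0809; DESeq2 adjusted p = 0.00755). Ursodiol stood at 254 CPM for Mef2c and passed only with run code (-1.10, adjusted p = 0.0399). Tcf4 was highest with the glucocorticoid dexamethasone, at 773 CPM against vehicles of 552 to 662 CPM (log2 fold change 0.31, edgeR adjusted p = 0.624); it passed with run code (0.32, adjusted p = 0.0246), a fit in which 0.789% of all genes were called. Betamethasone, another glucocorticoid, stood at 705 CPM for Tcf4 and did not pass in either fit. Tbr1, a factor of deep-layer neurons, was lowest with nortriptyline (47.5 CPM against vehicles of 62.1 to 108 CPM; edgeR adjusted p = 0.19). Adnp was called by none of the 3 tools, as were Chd8, Kmt2d and Nipbl.

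Among the cofactors, Med13l, a subunit of the Mediator kinase module, rose with 3 drugs. Vehicles held 108 to 126 CPM (median 113). Fenofibrate stood at 212 CPM (log2 fold change 0.88 ± 0.0826, edgeR adjusted p = 0.000139), aminophylline at 170 CPM (0.56 ± 0.0835, adjusted p = 0.0212) and nilotinib at 162 CPM (0.49 ± 0.0842, adjusted p = 0.00655). With run code the values were 0.83, 0.58 and 0.50. Aminophylline called Med13l alone among the members, beside 0.486% of all genes; it is theophylline with ethylenediamine. The other forms of theophylline in the screen, at doses also not given, were oxtriphylline and theophylline itself; for Med13l oxtriphylline stood at 124 CPM and theophylline at 114 CPM, both inside the vehicle range. Luteolin (151 CPM), ciprofibrate (146 CPM) and diflunisal (147 CPM) lay above all vehicles for Med13l and passed only in DESeq2, luteolin also with run code. Mitoxantrone (96.2 CPM), aprepitant (101 CPM) and bumetanide (103 CPM) were lowest.

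The 5 fibrates, which activate PPAR-alpha, gave different levels of the members they moved. For Med13l they stood at 212 CPM (fenofibrate), 146 CPM (ciprofibrate), 122 CPM (gemfibrozil), 118 CPM (bezafibrate) and 111 CPM (clofibrate), and the last 3 lay inside the vehicle range of Med13l. For Chd2 they stood at 129, 130.0, 86.1, 88.8 and 98.3 CPM in the same order. Doses are not given and each drug has 1 library, so no test between fibrates was made. As a class the fibrates called no gene in edgeR (1793 genes at an unadjusted p under 0.05); with run code Chd2 and Med13l passed as higher (0.23 and 0.22) and Arid1b and Bcl11a as lower (-0.12 and -0.25), where 13.5% of all genes were called.

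Dyrk1a, a kinase gene on the Down syndrome segment whose loss of 1 copy causes microcephaly, was the steadiest of the cofactors, at 112 to 124 CPM in vehicle (median 118). Nilotinib stood at 168 CPM (log2 fold change 0.51 ± 0.0651, edgeR adjusted p = 0.00135). The thyroid hormones levothyroxine and liothyronine came next at 149 and 146 CPM, each above all vehicles, and neither passed alone in edgeR (0.34, adjusted p = 0.132, and 0.31, adjusted p = 0.155). Together they passed (2 libraries against 9, log2 fold change 0.32 ± 0.046, edgeR adjusted p = 0.00541; 0.31 with run code, adjusted p = 1.32e-07), the only member of the class that did, beside 1.3% of all genes. The edgeR call was lost when either hormone was left out, while each hormone passed alone in DESeq2 and with run code. Both were sequenced in the same run, whose other 30 libraries lay between 114 and 125 CPM. Aminophylline (139 CPM), fenofibrate (137 CPM) and luteolin (136 CPM) also lay above all vehicles for Dyrk1a. They passed with run code (log2 fold changes 0.28, 0.25 and 0.25) but not in edgeR. Mitoxantrone (95.1 CPM), tranylcypromine (104 CPM) and famciclovir (105 CPM) were lowest for Dyrk1a.

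Auts2, a regulator of neuronal gene activation, passed in no drug by edgeR; diflunisal (119 CPM) and ciprofibrate (116 CPM) stood above its vehicles of 69.1 to 89.0 CPM with adjusted p of 0.086 and 0.0649. Both drugs belong to a run without vehicle whose other 14 drugs lay between 79.2 and 96.3 CPM for Auts2, and with run code neither passed (0.40, adjusted p = 0.151, and 0.35, adjusted p = 0.104). Ankrd11, Nipbl and Mbd5 also passed in no drug by edgeR. Ankrd11, lost in KBG syndrome, was highest with aminophylline at 280 CPM against 209 to 250 CPM (log2 fold change 0.27, edgeR adjusted p = 0.35; adjusted p = 0.00404 with run code). Mbd5 was highest with temazepam, at 94.5 CPM against 70.1 to 81.8 CPM (log2 fold change 0.36, edgeR adjusted p = 0.25, DESeq2 adjusted p = 0.0492), and lowest with mitoxantrone, at 55.0 CPM (-0.43, edgeR adjusted p = 0.13, DESeq2 adjusted p = 0.00529). With run code the mitoxantrone value for Mbd5 was -0.31 and did not pass.

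**Figure D3:**
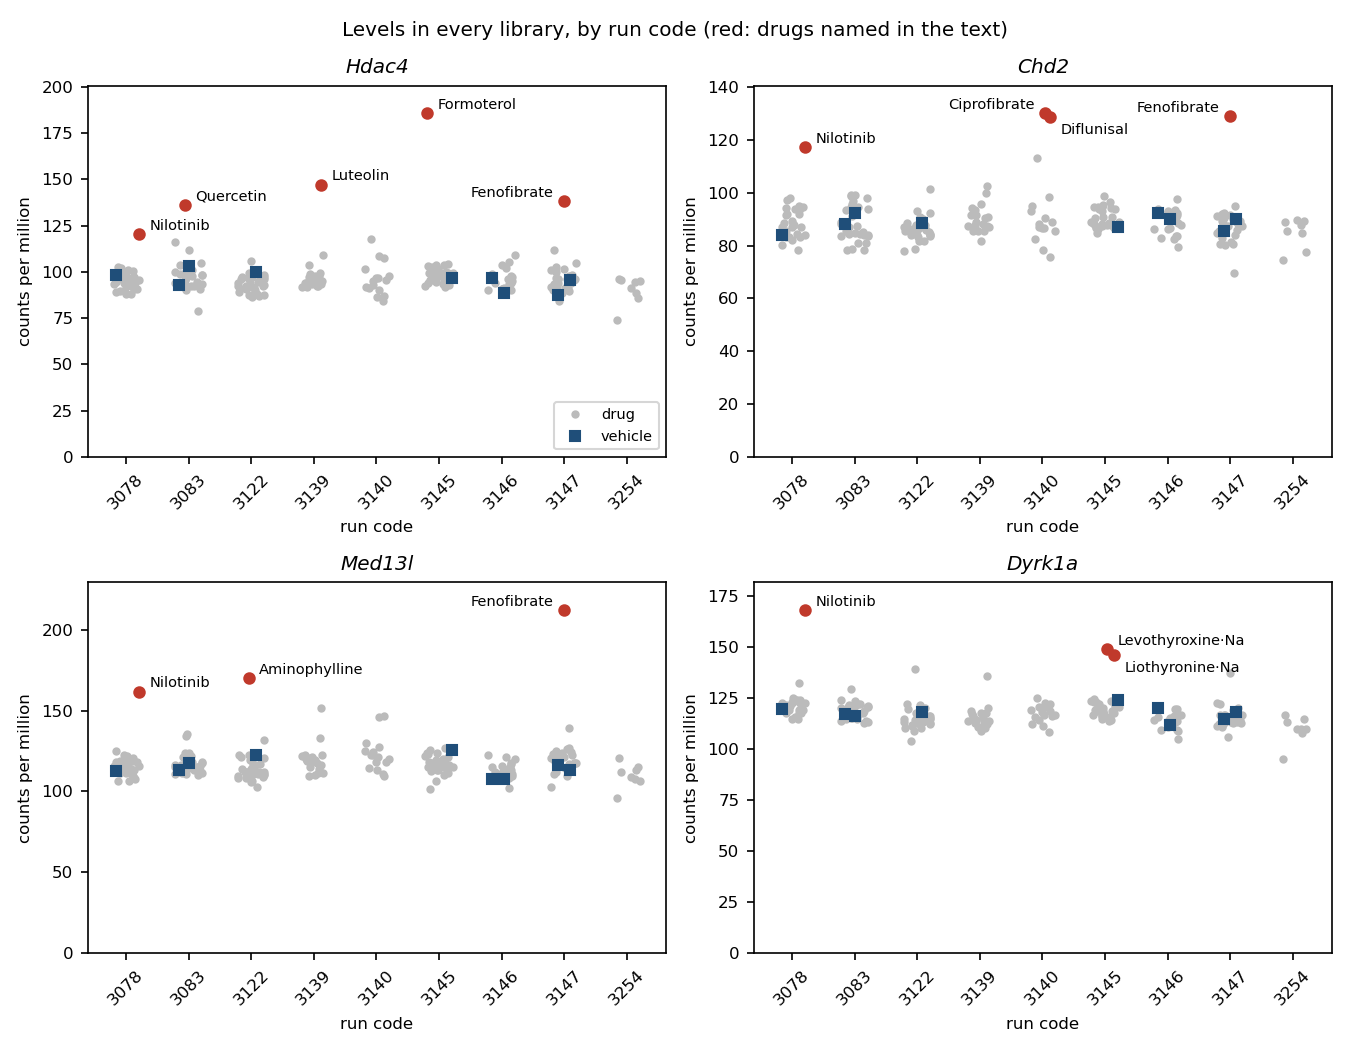
CPM of Hdac4, Chd2, Med13l and Dyrk1a in all 227 libraries, by run code, with vehicles as squares, drugs as grey circles and the named drugs as red circles. Formoterol stands at 186 CPM for Hdac4 while every vehicle lies between 87.7 and 103 CPM, and every red point lies above the grey points and squares of its own run.

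Nilotinib, a kinase inhibitor of BCR-ABL, raised 9 of the 31 members, or 29%, where 6.2% of all genes rose and 6.02% fell (12.2% together). They were Crebbp, Kmt2a, Dyrk1a, Med13l, Pogz, Chd2, Hdac4, Ehmt1 and Arid1b, with log2 fold changes from 0.26 to 0.69, and 23 of the 31 had a positive value (median 0.16, against -0.01 over all genes). No member fell in edgeR. DESeq2 called 11 higher and 4 lower (14.6% of all genes called), the falls being Bcl11a, Mef2c, Smarca2 and Smarca4, and the fit with run code 11 and 3 (21.5%). Bcl11a stood at 72.6 CPM with nilotinib (log2 fold change -0.46, edgeR adjusted p = 0.056; DESeq2 adjusted p = 0.0173; adjusted p = 0.0473 with run code). Of 102 other chromatin and transcription genes, 11 rose and 9 fell. The rises included Kdm6b, a histone demethylase (1.21), and the remodellers Chd1 (0.95) and Chd9 (0.60), and the falls included Myt1l, a neuronal repressor (-0.90), and the remodeller Chd3 (-0.58). Other features of the library moved too. The summed neuron markers stood at 3848 CPM against 4563 to 6203 CPM in vehicle, with 3 of 8 lower, the oligodendrocyte lineage markers at 272 CPM against 501 to 626 CPM, and 6 of 12 ATF4 stress genes rose. Their part in the rises of the members was not tested.

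Fenofibrate raised 4 members and lowered 1, or 16.1% of the list, where 10.6% of all genes were called, 5.82% higher and 4.78% lower. The rises were Med13l, Chd7, Chd2 and Hdac4. DESeq2 called 7 members higher and 3 lower (11.3% of all genes called) and the fit with run code 7 and 5 (27.5%). Of the 102 other chromatin and transcription genes 2 rose and 8 fell, the falls including the cortical neuron factors Fezf2 (-1.09), Sox5 (-0.79), Bcl11b (-0.62) and Satb1 (-0.59). The summed astrocyte markers stood at 9378 CPM, above the vehicle range of 6035 to 8192 CPM, and the oligodendrocyte lineage markers at 663.8 CPM, above theirs of 501.1 to 626 CPM. The neuron markers stood at 4145 CPM, below theirs, and the inhibitory neuron markers at 1016 CPM, below 1407 to 2340 CPM and lowest of all drugs; their part in these values was not tested.

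Of 9 drug classes, 2 called a member, and each called 1. The 5 benzodiazepines, which enhance GABA-A receptors, together raised Ehmt1 from 54.6 ± 1.47 to 59.4 ± 1.69 CPM (SD, n = 9 and 5; log2 fold change 0.13 ± 0.0318, edgeR adjusted p = 0.04), where 3.86% of all genes were called. Lorazepam stood at 61.7, triazolam at 60.3, temazepam at 59.1, clonazepam at 58.6 and oxazepam at 57.2 CPM, each above the highest vehicle (56.3 CPM). That place was common for Ehmt1, which lay above every vehicle in 81 of the 218 drugs. Lorazepam was sequenced in a run code with no vehicle, so its level against vehicle cannot be told apart from that run code. The call on Ehmt1 was lost without clonazepam, lorazepam, temazepam or triazolam (adjusted p 0.0824 to 0.13), without any vehicle but replicates 4 and 8 (0.0501 to 0.0727), and without the filter on low counts (0.103); it held with run code (0.09, adjusted p = 0.0076). In the same class 14 of 20 activity-regulated genes fell (median log2 fold change -2.13), and 3 of the 102 other chromatin and transcription genes rose while 2 fell, the deacetylases Hdac9 (-1.61) and Hdac5 (-0.30). Glucocorticoids, dihydropyridines, tricyclics, SSRIs, fibrates, flavonoids and theophyllines called no member in edgeR. At an unadjusted p under 0.05 the tricyclics had 7 members (26.4% of all genes), the fibrates 4 (12.1%), the flavonoids 2 (7.98%), the theophyllines 2 (378 of 14935 genes) and the remaining classes 0. DESeq2 called no member in these 7 classes, and the fit with run code called 4 in the fibrates and 1 in the flavonoids.

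A count of members outside the range of all 9 vehicles describes drugs that shift the list as a whole. The median drug had 2 members above and 2 below, near the median shares of all genes, 7.63% above and 8.13% below. Hydroxyurea, an inhibitor of ribonucleotide reductase, had 18 of 31 above (58.1%, against 12.9% of all genes), and 18 after centring on run code (22.8% of all genes). No gene at all was called with hydroxyurea in edgeR (9 members and 640 genes at an unadjusted p under 0.05), and its median member log2 CPM lay 0.18 above the vehicles. Leucovorin had 16 above (26.5% of all genes) but 7 after centring (15.7%). Nilotinib and the benzodiazepine triazolam each had 14 above (22.8% and 11.2% of all genes), and trihexyphenidyl, an antimuscarinic, had 13 (16.2%). After centring, fenofibrate joined with 13 (26.8%). On the low side mitoxantrone had 26 below (83.9%, against 16.4% of all genes), medroxyprogesterone 19 (15.2%), sulfamethoxazole 18 (13.4%), and CE-326597 and CP-610927-01 13 each (12.4% and 8.62%). After centring, mitoxantrone had 20 below (10.8% of all genes), sulfamethoxazole 17 (13.3%), CP-610927-01 15 (5.81%), CE-326597 13 (14.7%) and CP-945598 13 (a share of all genes just below that of CP-610927-01), while medroxyprogesterone, which shares its run with mitoxantrone, had 6 (7.71%).

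Mitoxantrone, an intercalating topoisomerase II poison, gave the lowest level of 17 of the 31 members. The same count over all genes is not given here, so that number is not shown to be particular to the members. In edgeR 1 member passed, Arid1b, where 0.402% of all genes were called; DESeq2 called 12 members lower (0.972% of all genes were called lower), and the fit with run code 4 (170 of 15332 genes were called lower, and 1.57% either way), Arid1b, Tcf4, Zeb2 and Auts2. Zeb2, the repressor lost in Mowat-Wilson syndrome, stood at 80.6 CPM against vehicles of 127 to 188 CPM (log2 fold change -0.98 ± 0.223, edgeR adjusted p = 0.124; -0.78 with run code, adjusted p = 0.000334). Tcf4 stood at 414 CPM against 552 to 662 CPM (-0.57 ± 0.113, edgeR adjusted p = 0.0727; -0.49 with run code, adjusted p = 1.18e-05). The 7 other libraries of the run lay between 552 and 622 CPM for Tcf4 and between 120 and 158 CPM for Zeb2, all above mitoxantrone. Only Kdm5c (0.19) and Mef2c (0.18) had positive log2 fold changes against vehicle, and with run code these were 0.16 and 0.02.

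With mitoxantrone the fold change fell with the genomic span of the gene, a trend that some other drugs shared. Over all protein-coding genes its median log2 fold change was 0.04 for spans under 10 kb and 0.01 for 25 to 50 kb. It was -0.10 for 100 to 200 kb and -0.21 over 200 kb, and with run code the outer values were 0.03 and -0.18. For fenofibrate the median went from 0.03 under 10 kb to -0.15 over 200 kb, and for nilotinib from -0.04 to -0.13. Spearman's rho between span and mitoxantrone's fold change across 14415 genes, which are not independent replicates, was -0.184 with run code. That was the lowest of the 218 drugs in that fit, with formoterol and letrozole next at -0.163. The highest was isosorbide dinitrate at 0.184. Without run code mitoxantrone had -0.185, and letrozole was lower at -0.203. The members lay lower than their span classes: 29 of 31 were below the median of all genes of their class, with member medians of -0.29 for 25 to 50 kb (4 members), -0.31 for 100 to 200 kb (12 members) and -0.48 over 200 kb (6 members). With run code these member medians were smaller, at -0.18, -0.22 and -0.38. Auts2, the longest member at 1106 kb, stood at 49.5 CPM against 69.1 to 89.0 CPM in vehicle (-0.65 ± 0.138, edgeR adjusted p = 0.0961). With run code the Auts2 value was -0.46, and the 7 other libraries of the run lay between 62.4 and 74.2 CPM. In the mitoxantrone library the summed astrocyte markers (5885 CPM) and oligodendrocyte lineage markers (376 CPM) lay under their vehicle ranges of 6035 to 8192 and 501 to 626 CPM, and the neuron markers (5454 CPM) inside theirs. The part of these markers in the fold changes was not tested.

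**Figure D4:**
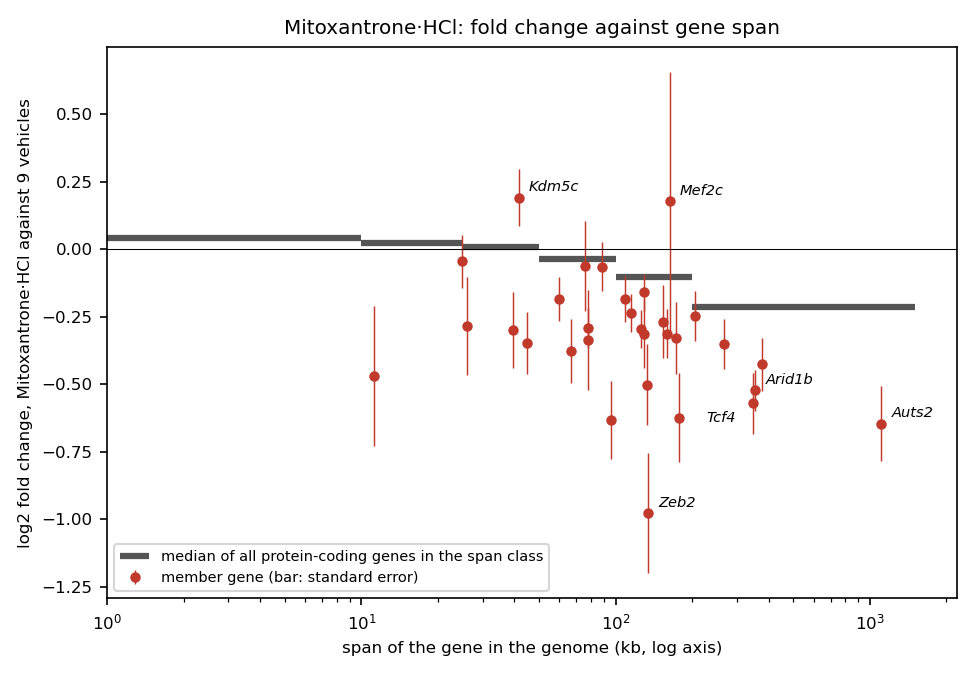
Log2 fold change of mitoxantrone against the 9 vehicles (vertical axis) by genomic span in kb (log axis), for the 31 members as points with standard errors and for all protein-coding genes as the median of each span class (bars). The class medians go from 0.04 under 10 kb to -0.21 over 200 kb, and 29 of the 31 members lie below the bar of their class.

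Several members are tied to neuronal activity, and cultures differ in it, so member levels were set against a score, the mean log2 CPM of 20 activity-regulated genes such as Fos, Npas4 and Bdnf, over all 227 libraries with run codes centred on their medians. Permuting the score within run codes (100000 permutations, smallest possible p 1e-05, two-sided, adjusted over the 31 members by Benjamini-Hochberg), 24 members passed, 4 with a positive and 20 with a negative Pearson r. The share is near that of other genes: 16 of 31 members (51.6%) had an absolute r above 0.3, against 56.1% of all genes. Zeb2 followed the score most closely, with r = -0.763 (permutation p = 1e-05, adjusted p = 1.94e-05) and Spearman rho = -0.798 (permutation p = 1e-05); r was negative in all 9 run codes (-0.895 to -0.411) and -0.76 without the 2 libraries farthest from the median score, CE-326597 and CP-448187. Tcf4 had r = -0.583 (permutation p = 1e-05), rho = -0.64 (permutation p = 1e-05), -0.813 to -0.0797 within run codes and -0.573 without those 2. Setd5, a chromatin protein of the SET family, had r = 0.648 (permutation p = 1e-05), rho = 0.677 (permutation p = 1e-05), 0.334 to 0.897 within run codes and 0.664 without those 2. Mef2c had r = 0.621 (permutation p = 1e-05), rho = 0.672 (permutation p = 1e-05), 0.365 to 0.923 within run codes and 0.636 without those 2. Dyrk1a passed on Pearson's r (0.138, adjusted permutation p = 0.0357) but had a rho of 0.00568 (permutation p = 0.933) and was positive in 4 run codes and negative in 5.

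Levels also moved with the cell-type markers of the same libraries, over 93 relations of 31 members with 3 summed marker lists (permutation within run codes, two-sided, adjusted over the 93). Against the neuron markers Tbr1 had r = 0.819 (rho = 0.718), Bcl11a r = 0.75 (rho = 0.659) and Mef2c r = 0.686 (rho = 0.673), while Chd7 had r = -0.829 (rho = -0.815), Smarcb1 r = -0.729 (rho = -0.687) and Nipbl r = -0.699 (rho = -0.708). Each had a permutation p of 1e-05, the smallest possible (adjusted p = 2.11e-05), for r and for rho. Without the 2 farthest libraries r was 0.811, 0.735, 0.663, -0.813, -0.714 and -0.683 in the same order. Within run codes the sign was the same in all 9 for Tbr1, Mef2c, Chd7, Smarcb1 and Nipbl, and for Bcl11a r ran from -0.021 to 0.892. The astrocyte markers gave the opposite signs, from 0.809 for Chd7 to -0.702 for Tbr1. These members were the extremes of the list with the neuron markers. Others had weak relations, such as Chd8 (r = -0.0143), Adnp (-0.0234) and Dyrk1a (-0.0395). With the oligodendrocyte lineage markers r ran from -0.429 for Kmt2a to 0.542 for Mef2c. No share over all genes is given here for such relations, so they are not shown to be particular to the members. Zeb2, which followed the activity score, had r = -0.397 with the neuron and 0.451 with the astrocyte markers. The score itself had r = 0.432 with the neuron and -0.404 with the astrocyte markers, and their part in the relations of the members was not tested.

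**Figure D5:**
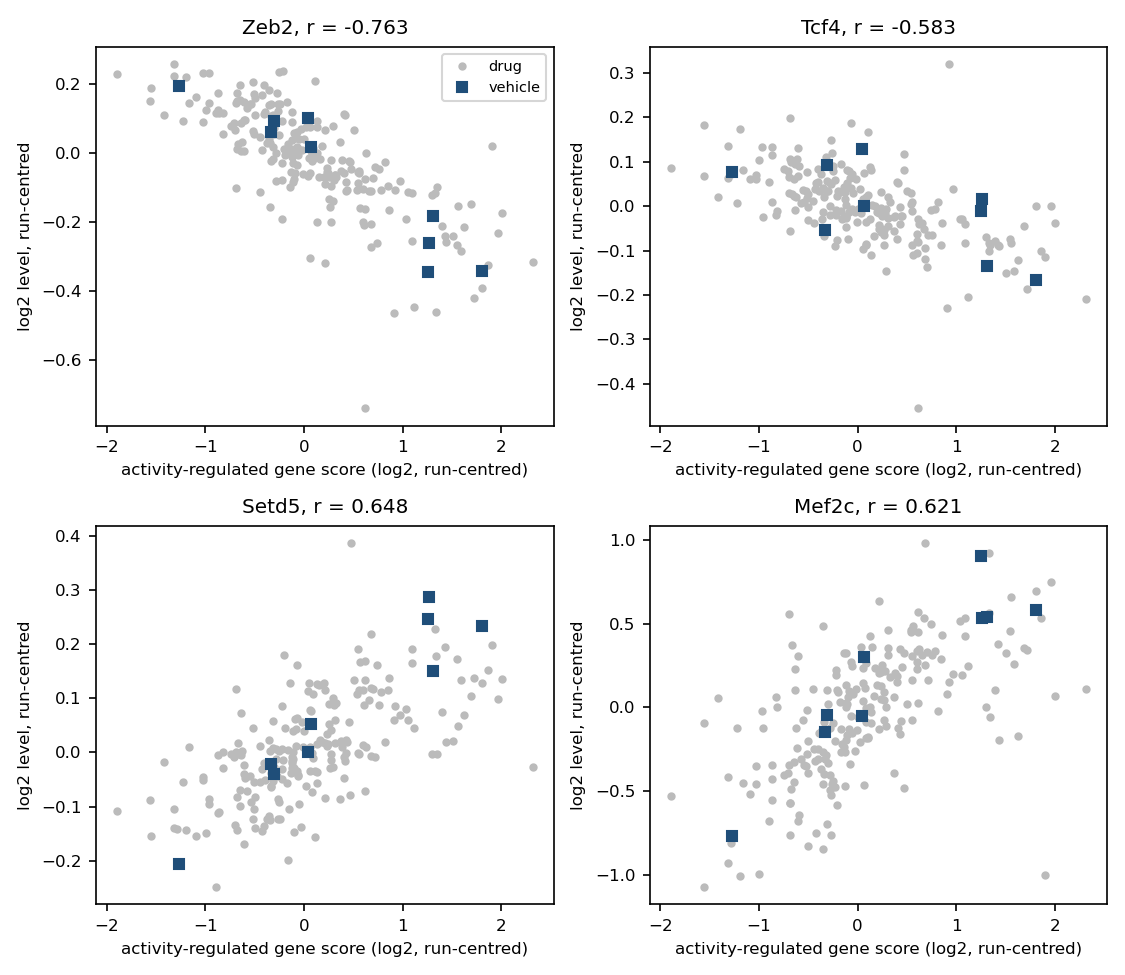
Run-centred log2 levels of Zeb2, Tcf4, Setd5 and Mef2c (vertical axes) against the run-centred activity-regulated gene score (horizontal axes, log2) in 227 libraries, vehicles as squares and drugs as circles. Zeb2 (r = -0.763) and Tcf4 (r = -0.583) descend with the score, and Setd5 (r = 0.648) and Mef2c (r = 0.621) ascend.

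The members also moved with each other across libraries. Over their 465 pairs the mean r of run-centred levels was 0.213, against 0.00149 over all pairs of genes kept. Genes with long counted sequence do this more in general: the mean r was 0.0839 over the 964 genes counted over more than 8000 bases, a class that holds 18 members with a mean r of 0.444 among themselves. Members with shorter counted sequence moved together far less. The mean r was 0.0874 among the 9 members of 6000 to 8000 bases, against 0.023 over all genes of that class. Among the 3 members of 4000 to 6000 bases it was 0.0707, against 0.00521. The highest pairs were Tbr1 and Bcl11a, both factors of cortical projection neurons (r = 0.897, rho = 0.881), the methyltransferases Kmt2a and Kmt2d (r = 0.87, rho = 0.863), and Ash1l and Ep300 (r = 0.862, rho = 0.842). The lowest were Mef2c with Nipbl, the cohesin loader lost in Cornelia de Lange syndrome (r = -0.719, rho = -0.704), Mef2c with Smarcb1 (r = -0.701, rho = -0.704) and Mef2c with Chd7 (r = -0.69, rho = -0.732). Each of these 6 pairs had a permutation p of 1e-05, the smallest possible, for r and for rho (adjusted over 465 pairs 2.1e-05 and 2.15e-05). Without the 2 libraries farthest from the median of Tbr1, Kmt2a, Ash1l, Mef2c, Smarcb1 and Chd7 respectively, r was 0.889, 0.869, 0.852, -0.707, -0.685 and -0.72 in that order. Within run codes the sign held in all 9 for every one of them, from 0.639 to 0.95 for Tbr1 and Bcl11a and from -0.927 to -0.306 for Mef2c and Nipbl. Mef2c had the lowest mean r with the other members (-0.244), and Arid1a the highest (0.4).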

How the data were processed

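The authors deposited whole-number read counts per gene and RPKM values (scaled to gene length and mapped reads) for 227 libraries, made with a stranded KAPA mRNA kit per the labels' protocols. The submitters' processing notes name STAR 2.4.0, Subread 1.4.6, limma, edgeR 3.10.5 and the mouse build mm10, without roles; whether counting used strand is not given in the sources used here. The deposited RPKM were checked against counts per length and library total over 2687074 values (largest relative difference 4.99e-06) and were used only to compare levels between genes.

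Counts were tested in R 4.3.3 with edgeR 4.0.16 (quasi-likelihood test, TMM factors, filterByExpr), each drug or class against the 9 vehicles, with Benjamini-Hochberg adjusted p under 0.05 over all genes of the comparison. Alternatives were DESeq2 1.42.0, limma 3.58.1 on log2 CPM (prior count 1) of all libraries with run code as a term, DESeq2 size factors, no filter on low counts, adjustment over all drugs together, and leaving out each vehicle or class drug. Fits and correlations over all libraries used 15332 genes with a CPM of at least 0.3 in 10 or more libraries. DESeq2 was run without a filter on low counts, and its shares are over every gene with a read. Correlations were tested with permutations within run codes.

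The scripts were tested on simulated data. With 1 library against 9, edgeR recovered 3.51%, 57.7% and 91.7% of genes changed by 0.5, 1 and 2 on the log2 scale, and called 6 of 14992 unchanged genes. The fit with run code recovered 28.6%, 75.4% and 93.4%, and called 14 of 15099. In this simulation edgeR therefore missed most changes of 0.5. The genes changed were drawn across expression levels and not matched to the members, so these shares do not give the power for the members. Members with a small spread passed at lower values, such as Arid1b (0.26) and Ehmt1 (0.27) with nilotinib.

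The members and all gene lists were chosen with earlier results of these data known. Drugs named are those with a member called, the 5 with most members above or below all vehicles (as measured and run-centred), the 3 highest and 3 lowest for each member called, and mitoxantrone; members without a call are described by extremes chosen after their values were seen. Genomic spans come from GENCODE vM21 and promoter sequences from RefSeq GRCm38.p6.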

Additional observations from a re-analysis of the deposited data

Results flagged for a closer look

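Among the 31 members, 1 had a vehicle library far from the others. Nsd1, a methyltransferase lost in Sotos syndrome, stood at 227.9 CPM in vehicle replicate 6, with the nearest vehicle at 211 CPM and the lowest at 194.4 CPM. The gap took a share of 0.505 of the range of the 9 vehicles, above the critical value of Dixon's test for a group of 9. Chance flags about 1 in 20 groups. Nsd1 was called in no drug by edgeR.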

How the results depend on the processing

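Every drug has 1 library, so each drug call rests on that library and on the spread of 9 vehicles, and for 4 of the 8 drugs the drug and a run code without vehicle cannot be told apart. The 22 calls (20 in drugs, 2 in classes) all kept their direction, and all 22 stayed past the threshold with DESeq2 size factors, in DESeq2 and with run code. Without the filter on low counts 19 did, without vehicle replicate 5 16 did and without replicate 9 18 did; with adjustment over all genes and drugs together 3 of 20 did, Hdac4 with formoterol (adjusted p = 0.00743), Med13l with fenofibrate (0.0136) and Chd2 with ciprofibrate (0.0486). The cause of these losses was not tested.

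Counts of members called moved more. Over single drugs DESeq2 gave 58, the run-code fit 52 and adjustment over all drugs 3, against 20. For DESeq2, the run-code fit and adjustment over all drugs in that order, aminophylline had 2, 5 and 0 (1 as reported), luteolin 2, 4 and 0 (1), fenofibrate 10, 12 and 1 (5), mitoxantrone 12, 4 and 0 (1) and nilotinib 15, 14 and 0 (9). The share of all genes called moved too, in DESeq2 and the run-code fit: aminophylline 1.27% and 3.61% (0.486% as reported), luteolin 1.46% and 9.07% (0.247%), fenofibrate 11.3% and 27.5% (10.6%), mitoxantrone 1.55% and 1.57% (0.402%), nilotinib 14.6% and 21.5% (12.2%). Ciprofibrate had 3 and diflunisal 4 in DESeq2 (537 of 21859 and 316 of 21825 genes), and diflunisal 0 with adjustment over all drugs. Leaving out 1 vehicle gave 15 to 22 over drugs, 0 to 1 for diflunisal (0 without replicate 5), 4 to 6 for fenofibrate, 1 to 2 for mitoxantrone (2 without replicate 8) and 6 to 10 for nilotinib. Over classes the count of 2 became 1 without the filter, 8 in DESeq2 and 11 with run code, and 1 to 4 on leaving out 1 library. Benzodiazepines had 0 without the filter, 5 in DESeq2 and 5 with run code, and 0 to 4 on leaving out 1 library. Fibrates had 4 and flavonoids 1 with run code, and thyroid hormones 3 in DESeq2 and 0 to 1 on leaving out 1 drug.

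Members outside the vehicle range per drug (5 in the median drug) came to 4 to 7 under all alternatives run, members that passed against the activity score (24) to 22 to 25, and the median RPKM of the members in vehicle (13.12) to 12.95 to 13.31.

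No paired analysis was possible because each drug has 1 library, so the groups compared share fewer than 2 replicate numbers.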
